A study of Homo sapiens with 12 samples.

Results

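Small RNA from xenografts grown from Hep3B cells, an established line of human liver cancer (labelled HCC), was listed in a table of 1451 features, of which 71 were predicted miRNAs. They were taken as every row whose name starts with novel_; the other 1380 rows had human miRNA names. The sample labels give both groups as Hep3B xenograft tissue, while the series' design text speaks of Hep3B cells; the sample labels were followed, and cells of a host animal would be present only if they are right. The groups differed only in treatment, given as Control or as Bufotalin, a bufadienolide of toad venom that acts as a cardiac glycoside. Each group had 3 small RNA libraries and 3 total RNA libraries. Dose, duration, host animal and age are not given in the sources used here, and nothing says that replicates were separate animals, so p-values measure only the spread between these libraries.

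A miRNA is a short RNA, cut from a hairpin precursor by DROSHA in the nucleus and by DICER1 in the cytoplasm, and loaded into an Argonaute protein, where its seed pairs with target mRNAs. Prediction programs search small RNA reads for stacks on genome stretches that can fold into such a hairpin and that match no annotated miRNA. A prediction is a candidate: reads of other short RNAs can also form such stacks. How these 71 were predicted is not given in the sources used here. Their sequences and genome positions were not used here, so the members are described by number and counts alone.

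The libraries held 1869893 to 4197636 counts. A count of 0 allowed up to 3 counts per library, or 0.715 to 1.60 CPM (the count over the library total, times 1000000). Such limits and the intervals below speak of counting error alone, as PCR copies of a molecule were not marked. One library stood apart: in Bufotalin replicate 2 the erythroid miR-451a was at 34779 CPM and the 3 listed erythroid markers summed to 38593 CPM, against 341 to 585 CPM in the other 5 libraries. Its 4 leukocyte markers summed to 236 CPM, against 2.46 to 11.2 CPM elsewhere. Of the liver markers, miR-122-5p, the dominant hepatocyte miRNA, was at only 15.4 to 116 CPM, while all 4 together summed to 881 to 2061 CPM. None of 6 listed liver mRNAs was among the selected genes of the mRNA table used here.

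As a class, the predicted miRNAs were rare. They held 645, 320 and 427 counts in Control replicates 1, 2 and 3, which was 0.0154%, 0.0156% and 0.0210% of each library. In Bufotalin replicates 1, 2 and 3 they held 388, 627 and 540 counts, or 0.0207%, 0.0188% and 0.0189%. The widest 95% Wilson interval of a library, that of Bufotalin replicate 1, ran from 0.0188% to 0.0229%. In CPM the class summed to 173 ± 31.9 (SD, n = 3) in Control and 195 ± 11.02 (SD, n = 3) in Bufotalin libraries. The groups overlapped, since Control replicate 3 was higher than every Bufotalin library, and the difference was within the spread between replicates (two-sided exact permutation test, p = 0.4; with 3 against 3 the smallest possible is 0.1).

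Counts were concentrated in a few members. novel_318 alone took 41.3% of the 2947 counts of the class, and the 4 most abundant members, novel_318, novel_319, novel_63 and novel_633, took 73.9%. At the other end, 43 of 71 members had fewer than 10 counts over all 6 libraries and 24 had 10 to 99. The median member had 7 counts in all, against 15 for a feature with a human miRNA name. Without novel_318 the class summed to 91.6 ± 14.1 CPM in Control and 119 ± 15.2 CPM in Bufotalin libraries (n = 3 each, exact permutation p = 0.2). That difference, 27.2 CPM, was no larger than that of novel_633 alone, whose mean went from 2.02 to 29.8 CPM.

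**Figure D1:**
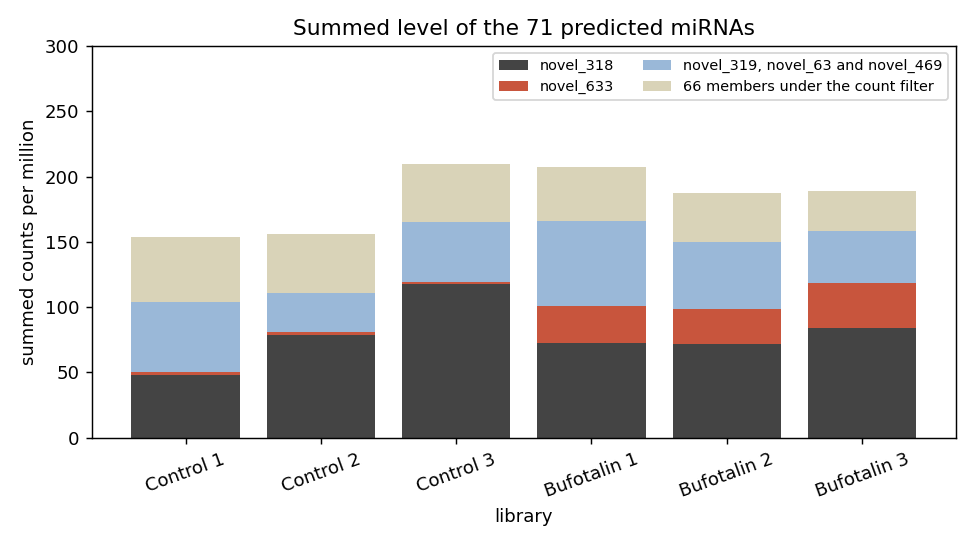
Summed CPM of the 71 predicted miRNAs in each library, stacked by member group. novel_633 is a thin band in the 3 Control libraries and a broad one in the 3 Bufotalin libraries, while the band of the 66 low members is 44.7 to 50.03 CPM in Control and 31.2 to 41.7 CPM in Bufotalin.

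Whether bufotalin changed single predicted miRNAs was tested on the counts of the whole table with edgeR's quasi-likelihood test. Counts were high enough to test 5 of the 71 members, and 477 of all 1451 features. After Benjamini-Hochberg adjustment it called 1 member, which rose, and none fell. Over all features tested the same rule called 5.66%, with 2.10% higher and 3.56% lower in Bufotalin. With so few members tested the share cannot be read against that background.

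The member called was novel_633. It was counted 9, 5 and 3 times in Control replicates 1, 2 and 3, or 2.14, 2.43 and 1.47 CPM. In Bufotalin replicates 1, 2 and 3 it was counted 53, 88 and 99 times, or 28.3, 26.4 and 34.7 CPM. Every Bufotalin library was thus far above every Control library. The mean rose from 2.02 ± 0.492 to 29.8 ± 4.35 CPM (SD, n = 3 each). The fitted log2 fold change was 4.04 (SE 0.44, edgeR adjusted p = 0.000629), or 16.5-fold. That value includes a scaling between libraries (TMM) which the CPM values lack, and with library totals alone it was 3.84. novel_633 passed the count filter through the Bufotalin libraries, where it was high.

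Replicates of novel_633 differed little more than counting error allows. Chi-square per degree of freedom over the 3 libraries was 0.247 in Control and 1.87 in Bufotalin. The rise was as large without the library rich in erythroid miRNAs: leaving out Bufotalin replicate 2 gave a log2 fold change of 4.15. Over all 14 other settings the value stayed between 3.802 and 4.15, and the member was called in each, with adjusted p from 1.75e-10 to 0.0200. Among the 27 called features it had the second smallest p, after miR-1246. It also had the second largest fitted rise, after miR-3609, whose own fold rests on 1 count in all of Control.

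Some markers of cell types differed in sum between the groups. The 4 fibroblast and smooth muscle miRNAs summed to 123 to 533 CPM in Control and 690 to 742 CPM in Bufotalin libraries. The 2 endothelial ones went the other way, from 2018 to 2240 CPM down to 1600 to 1980 CPM. Each of these sums was mostly 1 miRNA, and the other markers of both sets overlapped between groups. miR-143-3p was at 350 ± 211 CPM in Control and 663 ± 18.9 CPM in Bufotalin libraries (edgeR adjusted p = 0.101). miR-126-3p was at 2118 ± 120 and 1726 ± 215 CPM (log2 fold change -0.15, edgeR adjusted p = 0.817). The other sums overlapped between groups: the 3 muscle miRNAs had 50.6 to 90.8 CPM in Control and 57.8 to 421 CPM in Bufotalin libraries, and the 4 liver ones 881 to 1616 and 1611 to 2061 CPM. Every marker listed had counts in some library, but not all had enough to test: only 1 of 4 leukocyte and 1 of 3 muscle miRNAs did. None of those tested was called, so these sums are a description. In bulk tissue, a change in the number of cells of a type and a change in RNA per cell cannot be told apart, and the part of such cells in the rise of novel_633 was not tested.

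**Figure D2:**
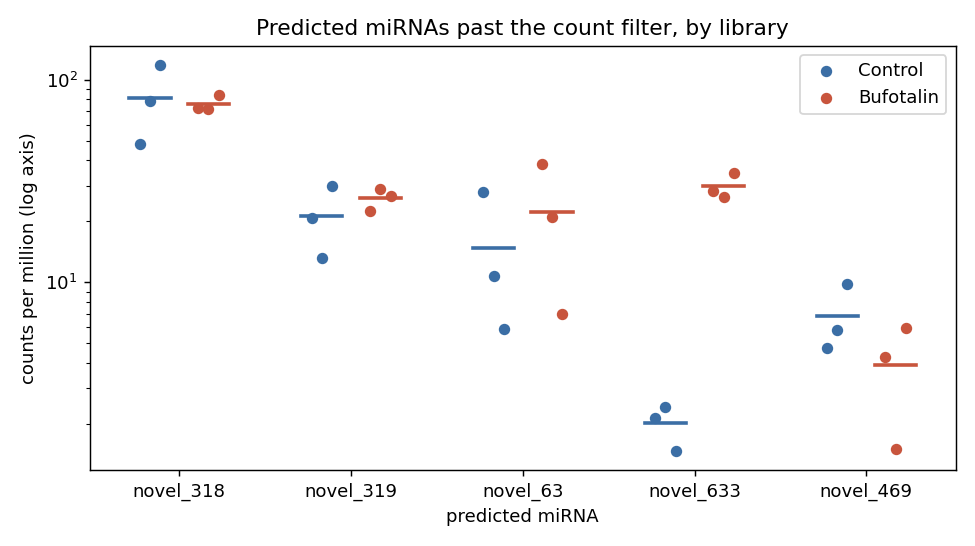
CPM (log axis) of the 5 predicted miRNAs with enough counts to test; points are libraries in the order of replicates 1, 2 and 3, and lines are group means. Only for novel_633 do the groups not overlap, with 1.47 to 2.43 CPM in Control and 26.4 to 34.7 CPM in Bufotalin.

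The features whose pattern across the 6 libraries was most like that of novel_633 were miR-3928-3p, miR-3074-3p and miR-3609. Their Pearson correlations of log2(CPM + 1) were 0.986, 0.981 and 0.977 over 6 libraries that share the same groups, given as a description. miR-3928-3p went from 2.43 to 2.86 CPM in Control to 4.81 to 5.604 CPM in Bufotalin libraries (edgeR adjusted p = 0.155). miR-3074-3p, which lies opposite a miR-24 gene, went from 14.7 to 17.5 CPM to 29.1 to 32.9 CPM (adjusted p = 0.0823), so neither passed the test. miR-3609 had 1 count in Control replicate 3, none in the other Control libraries, and 26, 27 and 41 in Bufotalin replicates 1, 2 and 3, and was called (adjusted p = 0.00333).

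The mature sequences of these named neighbours and of miR-1246 are shown because these named features stood closest to novel_633, the former in pattern and the latter in p. They come from RefSeq (GRCh38.p14); 2 of the 3 neighbours matched, and capitals mark the seed, bases 2 to 8.
miR-3928-3p: gGAGGAACcuuggagcuucggc
miR-3074-3p: gAUAUCAGcucaguaggcaccg
miR-1246: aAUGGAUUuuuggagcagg
The first lies at chr22:31160062-31160083 (minus strand), the second at chr9:95086024-95086045 (minus strand) and the third at chr2:176601024-176601042 (minus strand). The 3 seeds differ from each other.

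The most abundant member, novel_318, ranked 210 of all 1451 features by mean CPM. Its counts were 202, 161 and 240 in Control and 135, 240 and 239 in Bufotalin replicates 1, 2 and 3. That was 48.1, 78.4 and 118 CPM in Control against 72.2, 71.9 and 83.7 CPM in Bufotalin libraries. All Bufotalin values lay inside the Control range. The means were 81.5 ± 35.03 and 75.9 ± 6.75 CPM (SD, n = 3 each), with a log2 fold change of -0.0062 (SE 0.43, edgeR adjusted p = 0.991). Its Control libraries differed far beyond counting error, with a chi-square per degree of freedom of 46.5, against 1.67 in Bufotalin.

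novel_319 followed at 20.7, 13.1 and 29.98 CPM in Control and 22.5, 29.05 and 26.6 CPM in Bufotalin replicates 1, 2 and 3. The groups overlapped, with the widest range in Control. Means were 21.3 ± 8.43 and 26.04 ± 3.33 CPM, and the log2 fold change was 0.37 (SE 0.47, edgeR adjusted p = 0.69). It turned to -0.041 without Control replicate 2, its lowest library.

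Of the 5 tested members, novel_63 varied most between replicates of a group. It was at 27.9, 10.7 and 5.90 CPM in Control and 38.5, 21.0 and 7.01 CPM in Bufotalin replicates 1, 2 and 3. In both groups replicate 1 was highest and replicate 3 lowest, a spread of 4.73-fold and 5.50-fold. Chi-square per degree of freedom was 22.4 and 28.01, so counting error is not the limit. The log2 fold change was 0.62 (SE 0.61, edgeR adjusted p = 0.595). It was 0.052 without Bufotalin replicate 1 and 1.52 without Control replicate 1 (adjusted p = 0.134), so single libraries set its size.

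novel_469 was the one tested member with a lower mean in Bufotalin libraries beyond a near-zero value. It was counted 20, 12 and 20 times in Control, or 4.76, 5.84 and 9.83 CPM. In Bufotalin replicates 1, 2 and 3 it was counted 8, 5 and 17 times, or 4.28, 1.497 and 5.95 CPM. The ranges overlapped, and the log2 fold change of -0.65 (SE 0.64, edgeR adjusted p = 0.595) did not pass. Over single libraries left out it ran from -1.29 to -0.15.

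**Figure D3:**
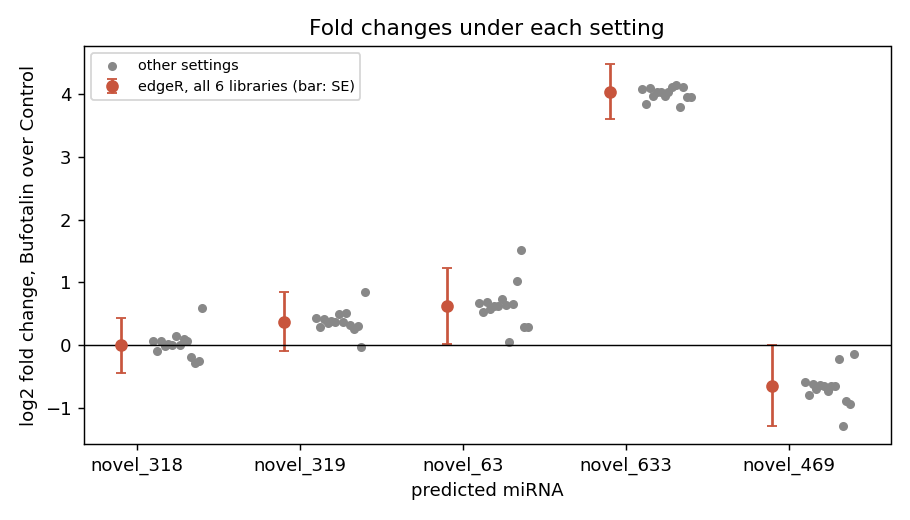
Log2 fold change of Bufotalin over Control for the 5 tested members; red points with bars are the edgeR values with their SE over 6 libraries, grey points are the 14 other settings. The grey points of novel_633 lie between 3.802 and 4.15, while those of novel_318 and novel_319 lie on both sides of 0.

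Over the 5 members with a test the median log2 fold change was 0.37, and it was -0.039 over all 477 features tested. Each of the 4 other than novel_633 had a fold change close to or under 1 SE. Their SEs were 0.43 to 0.64 on the log2 scale. Every feature called in the main fit had a log2 fold change of several times its SE. Changes well above these SEs in the 4 members could therefore have been missed too, and are not excluded.

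The next members by level were below 4 CPM on average. novel_421 had 12, 15 and 7 counts in Control and 2, 10 and 3 in Bufotalin replicates 1, 2 and 3 (means 4.53 ± 2.42 and 1.70 ± 1.12 CPM). novel_419 had 9, 6 and 1 counts in Control and 7, 7 and 10 in Bufotalin libraries. Both overlapped between groups. novel_617 had 7, 3 and 0 counts in Control and 9, 10 and 3 in Bufotalin libraries, and novel_375 was even, with 5 in each Control library and 3, 7 and 6 in Bufotalin libraries. novel_377 stood at 28, 5 and 2 counts in Control and 1, 4 and 0 in Bufotalin libraries. Its Control mean of 3.36 ± 2.96 CPM rested mainly on replicate 1.

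The 66 members without enough counts to test can be given as a sum. They summed to 50.03, 45.3 and 44.7 CPM in Control and 41.7, 38.03 and 31.2 CPM in Bufotalin replicates 1, 2 and 3. The means were 46.7 ± 2.91 and 37.0 ± 5.35 CPM (SD, n = 3 each). The count filter that defines this set had removed novel_633, which was low in Control and high in Bufotalin libraries. With it the sum turned the other way, to 46.2 to 52.2 CPM in Control and 64.4 to 70.1 CPM in Bufotalin libraries. The exact permutation p was 0.1, the smallest possible, both without and with novel_633. As the direction turned with this member, none was read from the sum. For the 908 features with human names that were likewise too low to test, the sum was 719 ± 150 CPM in Control and 639 ± 134 CPM in Bufotalin libraries.

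By class of total counts, the 43 members under 10 counts summed to 15.02 ± 1.22 and 9.02 ± 2.69 CPM in Control and Bufotalin libraries. The 24 members with 10 to 99 counts summed to 38.5 ± 2.38 and 31.9 ± 4.61 CPM. These classes, too, leave out novel_633, which has more counts.

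**Figure D4:**
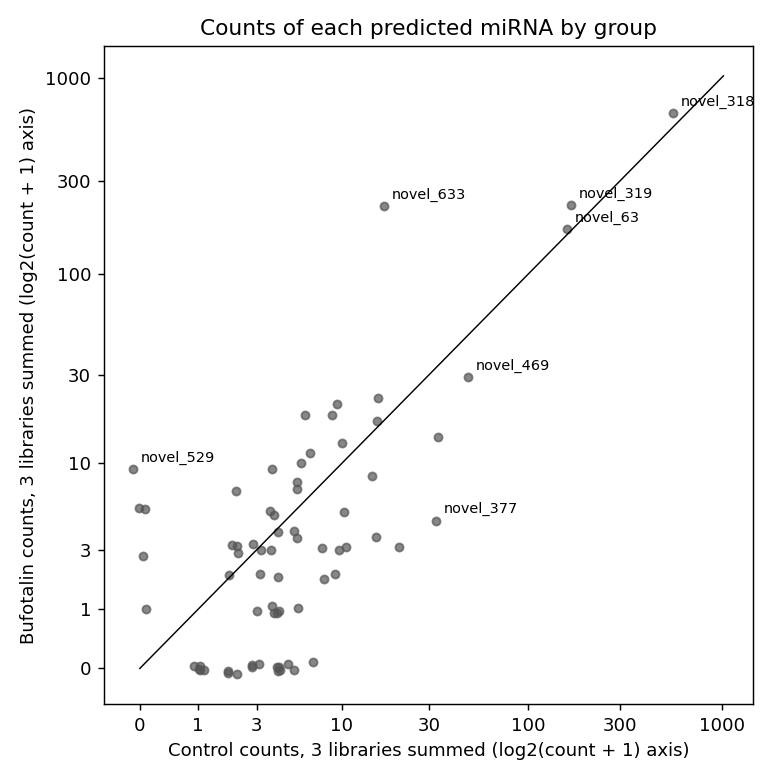
Counts of each predicted miRNA summed over the 3 Control (x axis) and the 3 Bufotalin libraries (y axis), on log2(count + 1) axes with a small random shift so that equal points can be seen; the line marks equal counts. novel_633 lies far above the line with 17 and 240 counts. At 0 on the y axis lie 18 members (25.4%, against 13.5% of all features). At 0 on the x axis lie 5 (7.04%, against 11.7%).

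Detection was then counted per library. At least 1 count was seen for 54, 37 and 41 of the 71 members in Control and for 36, 45 and 35 in Bufotalin replicates 1, 2 and 3. The most were seen in the deepest library, Control replicate 1. The means of 44 ± 8.89 and 38.7 ± 5.51 members overlapped (n = 3 each, exact permutation p = 0.5). At the depth of the smallest library, 1869893 counts, the expected numbers were 42.9, 35.9 and 39.8 in Control and 36, 36.9 and 30.7 in Bufotalin libraries (exact permutation p = 0.3). Adjustment was made over 4 values per library: the class sum with and without novel_318, and both numbers detected. Each adjusted p was 0.5 (Benjamini-Hochberg over exact permutation tests), and the design could not have passed. Exact p-values of other values per library, such as the sum of the 66 low members, were computed too and left out of this adjustment.

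Most members were missing from some libraries. Of the 71 members 15 had counts in all 6 libraries (21.1%), against 43.8% of the 1380 named features, and 15 had counts in a single library (21.1%, against 18.9%). Levels differ between these sets, and within the class of 10 to 99 counts the shares seen in all 6 libraries were 37.5% of 24 members and 51.5% of 375 named features. These shares are a description.

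**Figure D5:**
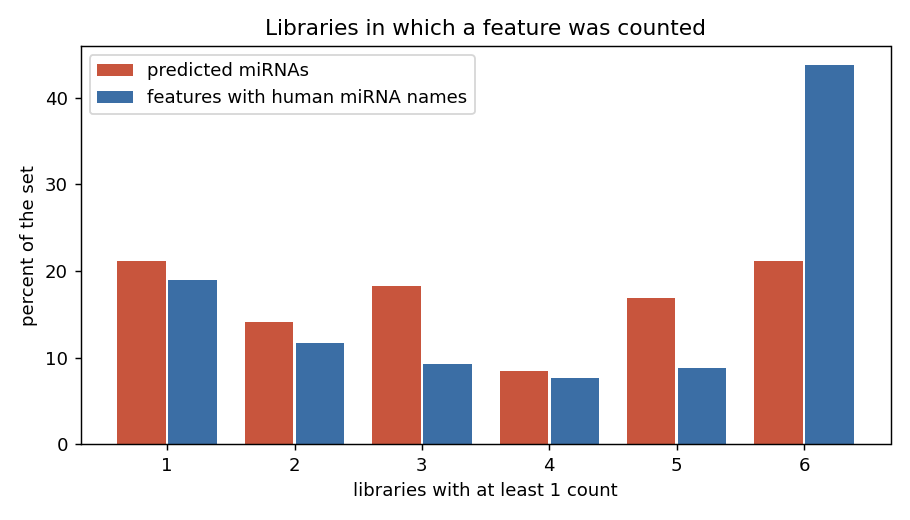
Percent of the 71 predicted miRNAs and of the 1380 named features by the number of libraries with at least 1 count. The bar for all 6 libraries is 21.1% for predicted and 43.8% for named features.

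Counts in one group only were seen for 23 members: 18 were counted only in Control and 5 only in Bufotalin libraries. Over all 1451 features the shares were 13.5% and 11.7%, and the members' shares were 25.4% and 7.04%. Of the 18, 13 rested on a single library, and none had more than 7 counts. The named features had 12.9% and 11.96%. Levels differ between these sets. Within the class under 10 counts the shares were 41.9% and 9.30% of 43 members, and 28.7% and 27.9% of 592 named features. Without Control replicate 1, 12 members (16.9%) were counted only in Control and 12 (16.9%) only in Bufotalin libraries. The named features then had 8.55% and 18.0%, in a setting which leaves 4088092 counts in Control against 8064588 in Bufotalin libraries. Without Bufotalin replicate 2 the members counted only in Bufotalin libraries were 3.

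Members counted in all libraries of one group and in none of the other numbered 3. novel_529 was counted 2, 5 and 3 times in Bufotalin libraries and never in Control, at 3.42 times a floor of 3 counts over the Control group. novel_674 was counted 1, 3 and 1 times in Bufotalin libraries and never in Control, at 1.71 times that floor. novel_444 was counted 1, 3 and 1 times in Control and never in Bufotalin libraries, at 1.62 times a floor of 3 counts over the Bufotalin group. The floor allows for counting error only in the group at 0, so these values are not lower limits. In the edgeR fit without a filter their adjusted p was 0.176, 0.401 and 0.435. Over all features, 0.62% had the first pattern and 0.758% the reverse.

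Taking all 71 members, CPM did not overlap between groups for 9 (12.7%), 6 higher and 3 lower in Bufotalin libraries. Over all 1451 features this share was 13.9%, and over the 477 tested it was 27.3%, so the members are near the background. Beside novel_633, novel_529, novel_674 and novel_444, these were novel_235, novel_334 and novel_337 (higher) and novel_508 and novel_528 (lower), named after their values were seen. novel_235 had 6, 2 and 1 counts in Control and 3, 9 and 7 in Bufotalin replicates 1, 2 and 3, or 0.96 ± 0.47 and 2.25 ± 0.572 CPM. novel_508 had 13, 3 and 4 counts in Control and 1, 2 and 0 in Bufotalin libraries, or 2.17 ± 0.838 and 0.378 ± 0.329 CPM. Each rests on a few counts per library.

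Without any filter on low counts all 71 members entered the edgeR fit, and novel_633 was again the one call (2.76% of all 1451 features were called). DESeq2 also called it and no other member, and called 10.1% of the features it gave an adjusted p. At an unadjusted p under 0.05 the edgeR fit without a filter had 5 of 71 members (7.04%) and 191 of 1451 features (13.2%), and DESeq2 had 2 members, novel_633 and novel_529. Besides novel_633, those of edgeR were novel_377, novel_529, novel_508 and novel_532, with edgeR adjusted p of 0.173, 0.176, 0.341 and 0.361, and so they are not called. novel_532 had 6 counts in Bufotalin replicate 2 and none in any other library.

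The genes that make and load miRNAs were read from the mRNA table, which held only genes that the authors had selected as different on these samples. Of 36 listed genes 9 were in it, and the other 27, among them DROSHA, DGCR8, DICER1 and XPO5, were not analysed here. With limma on log2(FPKM + 1), 8 of the 9 rose and 1 fell, but 93.2% of all tested genes of this selected table were called (44.3% higher, 48.8% lower). The count is therefore not independent evidence, and the read depth behind FPKM is unknown. The median log2 fold change of the 9 was 0.53, and over the 4273 genes tested it was 0.13.

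In the nucleus, SRSF3 (chromosome 6, 36594353 to 36614692), a splicing factor that also helps DROSHA find its sites, was at 28.7, 27.3 and 19.9 FPKM in Control and 53.5, 44.3 and 47.1 FPKM in Bufotalin libraries. Its groups did not overlap (log2 fold change 0.92, SE 0.15). The helicase DDX5, a partner of DROSHA, rose from 89.6 ± 6.82 to 130 ± 10.8 FPKM. KHSRP, an RNA-binding protein that promotes the processing of some precursors, rose from 99.4 ± 0.597 to 141 ± 15.7 FPKM. Under quantile normalization DDX5 and KHSRP kept their direction (log2 fold changes 0.29 and 0.25) but lost the call (limma adjusted p = 0.053 and 0.0884).

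In the cytoplasm, TARBP2 (chromosome 12, 53500921 to 53506431), a partner of DICER1, was at 11.3, 11.8 and 11.4 FPKM in Control and 19.7, 17.3 and 15.7 FPKM in Bufotalin libraries (log2 fold change 0.56, SE 0.12). AGO2, the Argonaute that can cut its target, rose from 22.1 ± 2.08 to 38.1 ± 9.11 FPKM. TUT7, which adds uridines to precursors, rose from 9.62 ± 0.702 to 15.1 ± 2.77 FPKM. TSNAX, of a nuclease complex that acts with Argonaute, overlapped between groups at 22.6 ± 4.37 and 29.3 ± 3.05 FPKM, and its call was lost in 5 of 11 settings. The call was also lost in 5 of 11 settings for TNRC6A, an Argonaute-binding scaffold, at 12.1 ± 1.25 and 16.5 ± 4.21 FPKM without overlap, the last of the 9 and named to complete the list.

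The 1 gene that fell was MOV10 (chromosome 1, 112673141 to 112700746), an RNA helicase found with Argonaute. It was at 23.3, 24.4 and 23.7 FPKM in Control and 5.44, 7.13 and 7.59 FPKM in Bufotalin libraries, so that no Bufotalin library came near the Control range. The log2 fold change was -1.70 (SE 0.13), and it stayed between -1.82 and -1.57 in 11 other settings. Whether any of these genes bears on the level of a predicted miRNA was not tested.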

How the data were processed

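Read counts and TPM per mature or predicted miRNA, and FPKM per selected gene, were deposited by the authors for 3 Control and 3 Bufotalin libraries of each RNA kind. The deposited TPM values equal count over library total times 1000000 (largest difference 4.37e-10), so CPM here is that quantity. Per the submitters' processing notes, CASAVA 1.8, fastp, HISAT2 2.0.5, featureCounts 1.5.0-p3, DESeq2 1.20.0 and GRCh38 were used; which tool made which value is not given in the sources used here.

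Whole tables were fitted with edgeR 4.0.16 (TMM, filterByExpr, robust quasi-likelihood F test) and with limma 3.58.1 (trended, robust), the latter on log2(FPKM + 1) of genes averaging 0.5 FPKM or more. Both gave two-sided p-values, adjusted by Benjamini-Hochberg over each whole table with a threshold of 0.05, and were checked on simulated data. The SE given with an edgeR value is the absolute log2 fold change over the square root of its F statistic. Values per library were compared by exact permutation. R 4.3.3, Python 3.11.15, pandas 2.3.3, scipy 1.17.1 and DESeq2 1.42.0 (as an alternative) were used.

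Members named were those called, the 10 most abundant, the 5 largest changes each way among tested members, tested members without overlap, and those in all libraries of one group only; pathway genes were the 8 with smallest p. Others in the text were picked once their values were known. The members and lists were chosen with earlier results of these data known. The lncRNA table was not used.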

Additional observations from a re-analysis of the deposited data

How the results depend on the processing

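The number of called members was 1 in all 14 other settings, and the member was novel_633 each time. The summed level of the class kept its direction (log2 ratio of Bufotalin over Control 0.091 to 0.33 with each library left out). So did the number of members detected (a difference of -8.83 to -0.33). With each library left out, 7 to 9 of 9 pathway genes were called. Under quantile normalization 6 were called, 5 higher and 1 lower in Bufotalin libraries. The log2 fold change of novel_318 changed sign from its -0.0062: it was 0.058 with RLE size factors, 0.056 with DESeq2, 0.013 with at least 10 counts in 3 libraries, 0.0010 with TMM on named features, and -0.29 to 0.58 with each library left out; that of novel_319 turned to -0.041 without Control replicate 2 (-0.041 to 0.84 over the libraries left out). The cause was not tested. edgeR called 27 of 477 features tested in the main fit, 40 of 1451 with no filter, and 40 of 478 without Control replicate 1. It called 13 of 520, 8 of 479 and 6 of 472 without Bufotalin replicates 1, 2 and 3. DESeq2 called 55 of the 544 features it gave an adjusted p. Counts in one group only, with each library left out, were chosen for display after seeing the data.

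The groups share replicate numbers, but deviations of same-numbered libraries correlated at 0.135, 0.029 and 0.364, so the numbers were not taken to pair them, and not every library correlated best with its own number. With the replicate number as a block, 3 features were called and novel_633 was one of them (log2 fold change 3.97, edgeR adjusted p = 0.0200). In that setting novel_318 had a log2 fold change of 0.14, and 8 pathway genes were called. Exact sign flips gave p = 0.5 for the summed level and 0.75 for the number detected. The smallest p possible there is 0.25, so that test could not have passed.

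Depth limits most of the class: 66 of 71 members had too few counts to test, and a count of 0 allows up to 1.60 CPM in the shallowest library.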

Other observations

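Several named miRNAs overlap other noncoding RNAs, such as small nuclear, nucleolar or transfer RNAs, and were set beside the predictions as a list, chosen with earlier results of these data known. Of 14 names, 10 were found, as 13 features, and 8 of these had counts enough to test with edgeR. Of these 8, 2 rose and 1 fell, with a median log2 fold change of 0.093; over all 477 features tested 2.10% rose and 3.56% fell. miR-1246, which shares its sequence with the U2 small nuclear RNA, went from 35.2 ± 15.6 to 264 ± 42.2 CPM (3.10, SE 0.34), and miR-3609 rose from 0, 0 and 1 counts. miR-4454, which resembles a transfer RNA end, fell from 723 ± 465 to 97.7 ± 37.6 CPM. The nucleolar miR-1291 and miR-1248 were at 15.6 ± 3.23 and 17.2 ± 4.51 CPM in Control and 15.7 ± 4.501 and 17.4 ± 7.85 CPM in Bufotalin libraries, without passing (log2 fold changes 0.12 and 0.068).

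No feature of the table had counts in a fixed ratio to a tested member: over the 6 libraries, no ratio of counts stayed within 1.3-fold. A few members, named after their values were seen, were counted mostly in one library. novel_301 had 14 of its 19 counts in Control replicate 1, novel_632 had all 7 there, and novel_519 had all 4 in Control replicate 3. These values have no replicate within their group.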
